A study of Mus musculus with 16 samples.

Results

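The levels of 10 genes of the vessel lining of the liver were followed in mice that received a gut microbiota from lean or obese donors. They are Flt4, Kdr, Tek, Pecam1, Lyve1, Stab1, Stab2, Clec4g, Oit3 and Fcgr2b, and every array probe carrying 1 of these names was taken, 19 probes in all. The names are 10 of 37074 on the array, and all 10 were among the 20404 genes tested. The list was selected on a measured value, the low Flt4 level with obese against lean microbiota, so Flt4 is described here with no test in any comparison, and all counts and medians cover the other 9 genes.

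All 16 animals were male C57BL/6 mice on normal chow, 10 weeks old at the end, never treated with antibiotics, and killed after a short fast. The 6 Conv + PBS mice were gavaged with the vehicle (reduced PBS), although their labels call them not transplanted. The 5 Conv + LM mice received caecal content of lean, chow-fed donors, and the 5 Conv + OM(HFD) mice caecal content of donors made obese on a high-fat diet. Donor material was pooled over several donors, so each transfer group stands for 1 kind of pool. The groups are also called PBS, LM and OM(HFD) mice here. Mice were housed 5 or 6 to a cage, and which mice shared a cage is not given in the sources used here. A whole group may have shared 1 cage, so p-values measure the spread between mice and may hold none of that between cages. Cage and transfer then cannot be told apart. Whole liver RNA of each mouse was hybridized to 1 array, and levels are log2 brightness relative to the 75th percentile of the array, at which the value is 0.

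Blood reaches hepatocytes through sinusoids, vessels whose endothelial cells have open pores and clear waste molecules from the blood with scavenger receptors, lectins and Fc receptors. Growth factors of the VEGF family act on the receptors Flt4 and Kdr, and angiopoietins on Tek. Flt4 and Lyve1 are best known from lymphatic vessels, and both are also made by sinusoidal endothelium. Each of these transcripts is a small part of whole liver RNA, and here fewer endothelial cells and less RNA per cell cannot be told apart. All 10 hepatocyte markers examined, Alb among them, were well above background in all 16 mice.

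Before the results, 2 mice need mention. The summed level of 15 Kupffer cell and macrophage markers was 319 times the 75th percentile in PBS mouse 1 and 167 in OM(HFD) mouse 25, and 70.3 to 115 in the other 14. The mean log2 level of 8 blood cell and platelet markers was also highest in these mice, 2.65 in mouse 1 and 3.18 in mouse 25, against 0.77 to 1.75 elsewhere. Their summed level did not set these mice apart, with 396 in mouse 1, 733 in mouse 25 and 254 to 756 in the others. Hepatocyte markers did not set them apart, with sums of 7630 and 7830 inside the range of 7390 to 9540 over all mice. The main counts, and the values of genes called, are therefore also given without both mice, a choice made after the data were seen. The arrays lay on 2 slides, each holding mice of every group. Differences within slides are given for Flt4, for the genes called and, between OM(HFD) and PBS mice, for all genes of the list.

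Flt4, the receptor of VEGF-C and VEGF-D, was read by 1 probe (mm9 chr11:49465646-49465705). In PBS mice its level ran from -4.08 to -3.34 with a median of -3.61. In LM mice 13 to 17 it was -3.24, -3.26, -2.01, -2.97 and -3.53. In OM(HFD) mice 25, 26, 28, 29 and 30 it was -4.47, -3.56, -4.71, -3.99 and -3.72. Every OM(HFD) mouse was thus below every LM mouse, though the nearest pair, mice 17 and 26, was almost level, and PBS mice lay across both. The probe was well above background in 4 of 6 PBS, 5 of 5 LM and 2 of 5 OM(HFD) mice, so that 3 of the 5 OM(HFD) values came from spots not well above background.

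**Figure D1:**
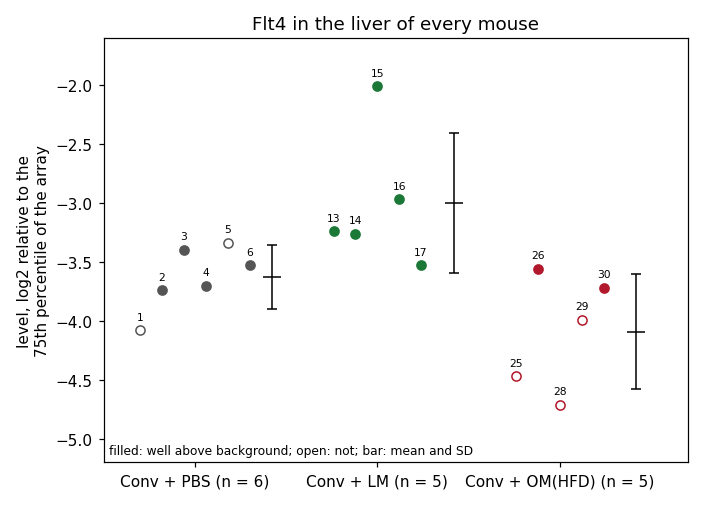
Level of Flt4 in each mouse, as log2 brightness relative to the 75th percentile of the array, in 5 OM(HFD), 5 LM and 6 PBS mice; numbers are mouse numbers, filled points are well above background, open points are not, and bars are mean and SD. Conv + OM(HFD) mice lie between -4.71 and -3.56, Conv + LM mice between -3.53 and -2.01.

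The group means of Flt4 were -3.63 ± 0.27 (SD, n = 6) with PBS, -3.00 ± 0.59 (SD, n = 5) with the lean microbiota and -4.09 ± 0.49 (SD, n = 5) with the HFD-microbiota. Its log2 difference between OM(HFD) and LM mice was -1.09, that is 0.471 times the level. The difference was -1.04 on slide 1 and -0.94 on slide 2. Its size varied with the processing: it was -0.19 with normexp background correction and -0.42 in the authors' processed values. Which step of the processing moved it was not tested. With the lean microbiota, Flt4 was 0.63 above PBS mice (0.16 with normexp correction), and with the HFD-microbiota 0.46 below them, a log2 fold change of -0.46 (-0.02 with normexp correction). Leaving out single mice moved these 2 values between 0.38 and 0.76 and between -0.59 and -0.30. The difference between OM(HFD) and LM mice then ran from -1.22 to -0.84. The differences from PBS mice varied by slide, with -0.80 on slide 1 and -0.01 on slide 2 for the HFD-microbiota, and 0.24 and 0.93 for the lean microbiota.

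Kdr, the main receptor of VEGF-A, and Tek, the angiopoietin receptor, are, like Flt4, receptor tyrosine kinases. The bases before their transcription starts are shown because these receptors form 1 class on the list, and because ETS factors such as Fli1 and Erg, known regulators of endothelial genes, bind around the letters GGAA. Each sequence holds the 250 bases upstream of the start in RefSeq on GRCm38.p6, written 5′ to 3′ on the gene's strand, with GGAA and its reverse complement TTCC in capitals. Flt4 lies on the plus strand (chr11:49609429-49609678), Kdr on the minus strand (chr5:75978456-75978705) and Tek on the plus strand (chr4:94739039-94739288).
Flt4: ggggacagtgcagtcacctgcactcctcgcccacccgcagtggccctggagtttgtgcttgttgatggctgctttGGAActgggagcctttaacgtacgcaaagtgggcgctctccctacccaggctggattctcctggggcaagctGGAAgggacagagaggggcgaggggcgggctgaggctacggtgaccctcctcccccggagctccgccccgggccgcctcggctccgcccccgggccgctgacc
Kdr: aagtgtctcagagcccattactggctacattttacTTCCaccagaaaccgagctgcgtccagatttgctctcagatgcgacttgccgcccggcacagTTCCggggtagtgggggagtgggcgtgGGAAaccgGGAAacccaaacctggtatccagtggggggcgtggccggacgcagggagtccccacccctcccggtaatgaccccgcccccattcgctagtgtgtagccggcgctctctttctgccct
Tek: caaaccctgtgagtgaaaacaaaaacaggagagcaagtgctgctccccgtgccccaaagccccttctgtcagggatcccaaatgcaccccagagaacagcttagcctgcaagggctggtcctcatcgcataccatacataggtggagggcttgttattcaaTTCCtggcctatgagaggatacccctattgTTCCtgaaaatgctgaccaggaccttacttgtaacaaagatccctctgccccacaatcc
Copies of the core were counted on both strands, and none overlapped another. Flt4 and Tek each hold 2, and 76.8% of the 32851 upstream windows of this length in the table hold at least 2. Kdr holds 4, and 33.4% of windows hold at least 4. The letters are common, and a match is not a bound site.

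Of the other 9 genes, 7 were lower in OM(HFD) than in LM mice, but only Tek had an unadjusted p under 0.05 in limma, 1 of 9 against 2.67% of all genes (545 of 20404). Lower calls alone made up 1.29% of all genes. The median log2 fold change of the 9 was -0.08, against 0 over all genes, and none passed an adjusted p under 0.05, as was true of all 20404 genes (0%). The order of group means seen for Flt4, lean microbiota highest and HFD-microbiota lowest, was shared by 1 of 9 genes, Tek. In 6 of 9 the PBS mean was the highest.

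Tek (probe at mm9 chr4:94540861-94540919) was -2.42, -1.94, -2.16, -2.42 and -2.43 in LM mice 13 to 17. It was -2.88, -2.70, -2.59, -2.53 and -2.52 in OM(HFD) mice 25, 26, 28, 29 and 30. PBS mice ran from -2.69 to -1.86 with a median of -2.40. No OM(HFD) mouse reached the lowest LM mouse, and PBS mice overlapped both groups. The share of all genes whose OM(HFD) and LM mice do not overlap is not given here. The log2 fold change between OM(HFD) and LM mice was -0.37 ± 0.15 (SE), 0.772 times the level (limma p = 0.0251, adjusted p = 0.999; exact two-sided permutation p = 0.00794, the smallest that 5 against 5 mice can give). It was -0.49 within slide 1 and -0.28 within slide 2. The call was lost with normexp correction (-0.12), without LM mouse 14 (-0.29) or mouse 15 (-0.34), without OM(HFD) mouse 25 (-0.31), and without mice 1 and 25 together (-0.31), where 0 of 9 genes passed (3.67% of all genes) and the median of the 9 was -0.02. No other gene of the list passed in any of the fits that left out 1 mouse in this comparison.

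Fold changes of the remaining 8 genes in this comparison lay between -0.12 and 0.05. Clec4g differed by -0.12 (95% interval -0.51 to 0.27), Stab1 by -0.11 (-0.30 to 0.08) and Kdr by -0.09 (-0.37 to 0.19). Oit3 differed by -0.08, Stab2 by -0.05 and Lyve1 by -0.03, while Fcgr2b and Pecam1 were 0.05 and 0.01 higher. The interval of Lyve1 was the widest, from -0.96 to 0.90, so that a change of either sign and of well over 1.5-fold was not detectable for it.

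**Figure D2:**
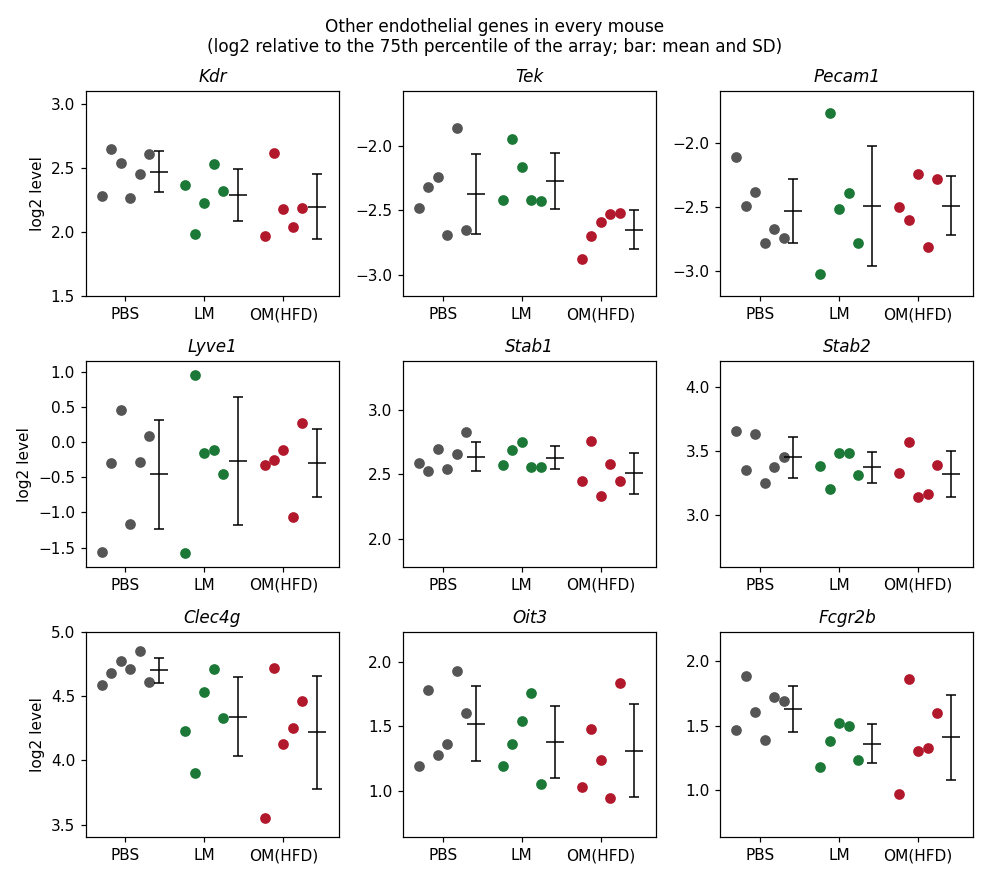
Levels of the other 9 genes in each mouse, as log2 brightness relative to the 75th percentile of the array, with mean and SD, in 6 PBS (grey), 5 Conv + LM (green) and 5 Conv + OM(HFD) (red) mice; each panel has its own axis range, and every value is well above background. Clec4g was between 4.59 and 4.85 in all Conv + PBS mice and reached 3.55 with the HFD-microbiota, while Lyve1 covered more than 2 log2 units in Conv + PBS and Conv + LM mice.

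Against PBS mice, 7 of the 9 genes were lower with the HFD-microbiota, with a median log2 fold change of -0.21 (all genes 0), and 1, Clec4g, had an unadjusted p under 0.05. This is 1 of 9 where 3.25% of all genes were called (663 of 20404), and 1.76% were called lower. For most of the 9 genes the difference was lower on slide 1 than on slide 2, as given gene by gene below. Clec4g encodes a C-type lectin of sinusoidal endothelium. Its 250 upstream bases in RefSeq (chr8:3720652-3720901, GRCm38.p6, minus strand), with the same letters in capitals, are shown because Clec4g had the largest difference from PBS mice among the 9 genes.
Clec4g: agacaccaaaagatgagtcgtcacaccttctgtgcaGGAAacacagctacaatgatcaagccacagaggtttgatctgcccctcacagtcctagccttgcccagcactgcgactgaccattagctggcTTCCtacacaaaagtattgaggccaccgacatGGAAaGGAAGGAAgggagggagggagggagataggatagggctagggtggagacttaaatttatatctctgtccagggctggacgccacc
They hold 5 copies of GGAA or TTCC, and 18% of windows hold at least 5.

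Clec4g (probe at mm9 chr8:3716182-3716241) varied little in PBS mice, from 4.59 to 4.85 (median 4.69), and spread downward after both transfers. It was 4.23, 3.90, 4.53, 4.71 and 4.33 in LM mice 13 to 17. It was 3.55, 4.72, 4.13, 4.25 and 4.46 in OM(HFD) mice 25, 26, 28, 29 and 30. All but 1 mouse of each transfer group, mice 16 and 26, were below the whole range of PBS mice, yet the groups overlapped through these mice. The log2 fold change with the HFD-microbiota was -0.48 ± 0.18 (SE), 0.718 times the level (limma p = 0.0159, adjusted p = 1; exact two-sided permutation p = 0.0130). With the lean microbiota it was -0.36 ± 0.18 (SE), which did not pass in limma (p = 0.0592) but had an exact permutation p of 0.0152. This second difference passed in limma with slide as a block (-0.38), with normexp correction (-0.37), in the authors' values (-0.38), in a fit of these 2 groups alone (-0.36) and with the mean of both probes (-0.45). The difference lay on slide 1, with -0.72 and -0.70 for the HFD- and lean microbiota, and was -0.15 and -0.11 on slide 2. Without OM(HFD) mouse 25, which had high macrophage and blood cell markers, the first was -0.31 and no longer passed, and without mice 1 and 25 it was -0.33 and did not pass, while the second was -0.38 and passed.

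A second Clec4g probe, well above background in 9 mice, differed by -0.55 and -0.54 in the same comparisons and did not pass in either. Why the slides differ was not tested.

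Kdr (probe at mm9 chr5:76329309-76329368) was 1.97, 2.62, 2.18, 2.04 and 2.19 in OM(HFD) mice 25, 26, 28, 29 and 30. PBS mice ran from 2.27 to 2.65 with a median of 2.5, so that 4 of 5 HFD-microbiota mice were below all of them and mouse 26 among the highest. The log2 fold change was -0.27 ± 0.12 (SE) and just missed the threshold (limma p = 0.0502; exact permutation p = 0.0693). It was -0.43 within slide 1 and -0.05 within slide 2. Tek differed by -0.27 ± 0.14 (SE) in this comparison (limma p = 0.0766; exact permutation p = 0.0996), again with -0.53 on slide 1 and -0.01 on slide 2. Kdr passed with normexp correction (-0.26), in the authors' values (-0.26), with only probes bright on all arrays (-0.27) and with array weights (-0.27). Tek passed with slide as a block (-0.29), quantile normalization (-0.31) and array weights (-0.28), but was -0.07 with normexp correction and -0.18 in the authors' values and passed in neither.

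Fcgr2b, the inhibitory Fc receptor with which sinusoidal endothelium takes up immune complexes, and Oit3, a secreted liver protein, had log2 fold changes of -0.21 and -0.22 with the HFD-microbiota (exact permutation p = 0.203 and p = 0.290). Fcgr2b differed by -0.45 on slide 1 and 0.08 on slide 2, Oit3 by -0.29 and -0.17. Without OM(HFD) mouse 25, Fcgr2b was -0.10, and without mouse 26 it was -0.33 and passed. Oit3 ran from -0.35 to -0.13 without single mice and did not pass. The scavenger receptors Stab1 and Stab2 both had a fold change of -0.13 (exact permutation p = 0.160 and p = 0.236). Stab1 differed by -0.22 on slide 1 and 0.02 on slide 2, Stab2 by -0.16 and -0.08. Without OM(HFD) mouse 26, Stab1 was -0.19 and passed. Pecam1, an adhesion protein of endothelial junctions, and Lyve1, a hyaluronan receptor, stood at 0.04 and 0.17 (exact permutation p = 0.792 and p = 0.695). Pecam1 differed by 0.17 on slide 1 and -0.16 on slide 2, Lyve1 by -0.02 and 0.23.

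The count of 1 called gene moved with single mice. It was 2 without PBS mouse 1 or 6 and without LM mouse 14 or 16, 3 without PBS mouse 4, 4 without OM(HFD) mouse 26, and 0 without mouse 25 alone or mice 1 and 25 together. Without PBS mouse 4 and without OM(HFD) mouse 26, 3.29% and 3.83% of all genes were called, and 2.72% to 4.19% over all 16 fits that left out 1 mouse. Without mice 1 and 25, 8 of 9 genes were lower, with a median of -0.14, and 3.14% of all genes were called.

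With the lean microbiota against PBS, 6 of 9 genes were lower, with a median of -0.08 (all genes -0.01), and 0 of 9 had an unadjusted p under 0.05 in limma, where 3.88% of all genes were called (792 of 20404) and 2.09% were called lower. Fcgr2b (probe at mm9 chr1:172890988-172891047) was 1.18, 1.38, 1.52, 1.5 and 1.23 in LM mice 13 to 17. PBS mice lay between 1.39 and 1.89 with a median of 1.65, and 3 of 5 lean-microbiota mice were below all of them. Its log2 fold change was -0.26 ± 0.14 (SE; limma p = 0.0748; exact permutation p = 0.0368), -0.46 on slide 1 and -0.10 on slide 2. The direction was opposite to the 0.63 of Flt4 over the same mice. Without PBS mouse 4 or LM mouse 16 the limma count was 1, and without OM(HFD) mouse 25 or 26 it was 2, as it was without mice 1 and 25 together (Clec4g and Fcgr2b), where 4.73% of all genes were called and the median of the 9 was -0.04. In the 16 fits that left out 1 mouse, 3.37% to 4.91% of all genes were called.

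**Figure D3:**
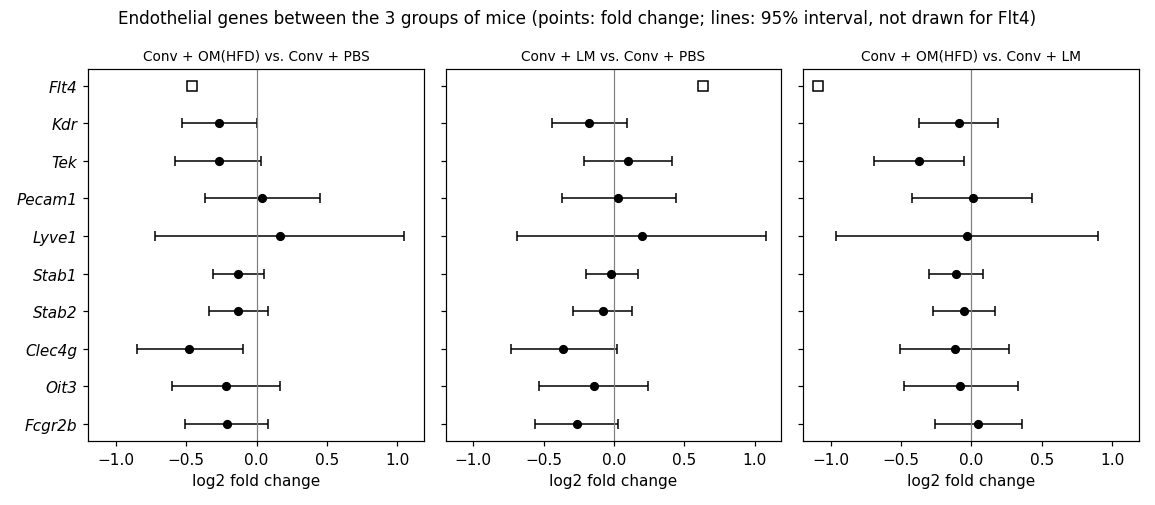
Log2 fold change of the 10 genes in the 3 comparisons, with 95% intervals from limma for the 9 genes tested; the open square is Flt4, whose level selected the list and which was not tested. Flt4 lies at -1.09 in Conv + OM(HFD) vs. Conv + LM mice, left of all other genes, of which Tek at -0.37 is the lowest.

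Any 2 of these comparisons share a group of mice, so that their fold changes are not independent of each other.

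Mice of the same group differed widely in some of these genes. The within-group SD was 0.74 for Lyve1, higher than that of 94.3% of genes, and 0.46 for Flt4 (81.5%), against a median of 0.24 over all genes. Lyve1 was -1.58 in LM mouse 13 and 0.95 in mouse 14 of the same group, a 5.78-fold range. PBS mice 1 and 4 were also low for Lyve1, at -1.57 and -1.17. Stab1 was the steadiest, with an SD of 0.12 and a 1.41-fold range over all 16 mice, and Stab2 was close to it with an SD of 0.15.

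Some mice were low or high for several genes. In OM(HFD) mice, mouse 25, 1 of the 2 mice with high macrophage and blood cell markers, had the lowest Kdr, Tek, Clec4g and Fcgr2b of all 16 mice, and mouse 28 the lowest Flt4, Stab1 and Stab2. Mouse 26 was above its group mean for 7 of the 9 genes and for Flt4 by 0.53. LM mouse 15, with the highest Flt4 of all mice, was above its group mean for 7 of 9 genes, but by a median of only 0.12 against 0.99 for Flt4.

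**Figure D4:**
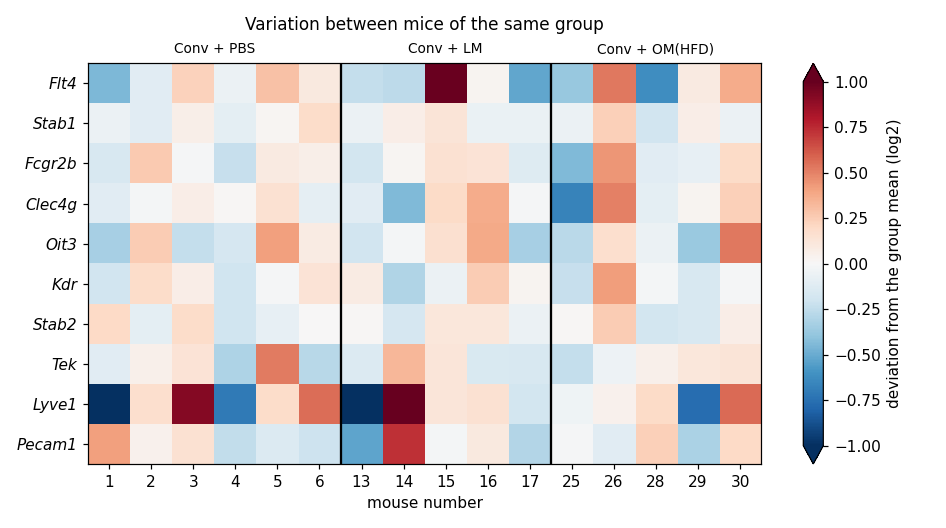
Deviation of each of 10 genes from the mean of its group in each mouse, in log2 units, red above and blue below the mean; the colour scale ends at 1 and -1. Mice 25 and 26 of the Conv + OM(HFD) group differ in sign for most genes, and Lyve1 has the deepest colours.

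On deviations from group means over the 16 mice, Pearson's r with Flt4 was 0.66 for Stab1 (Spearman's rho 0.62), 0.64 for Fcgr2b (0.68), 0.62 for Clec4g (0.77) and 0.54 for Oit3 (0.56). Leaving out the 2 mice farthest in Flt4 gave 0.56, 0.71, 0.70 and 0.62. Within slides, r was 0.54 to 0.70 on slide 1 and 0.57 to 0.69 on slide 2 for these 4 genes (n = 8 each). Among 20403 genes they ranked 190, 244, 315 and 794, where the median r was 0.05 and 5% of genes were above 0.51. The values of a mouse share 1 array, 1 scaling and 1 slide, and with normexp correction r was 0.32 for Stab1, 0.20 for Fcgr2b, 0.48 for Clec4g and 0.20 for Oit3. The remaining genes ran from -0.15 for Pecam1 to 0.43 for Stab2, with Kdr at 0.33, Tek at 0.31 and Lyve1 at 0.25. Tek was at 0.50 and 0.53 within the slides and at 0.55 with normexp correction, then the highest of the 9. Without mice 1 and 25, r was 0.64 for Stab1, 0.60 for Fcgr2b, 0.63 for Clec4g, 0.44 for Oit3 and 0.65 for Stab2, and 0.19 for Kdr.

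The genes with the highest r were Lyrm5 (0.88), Pgm2 (0.85), Lipa (0.84), Pmpcb (0.83) and Hars2 (0.83). Pmpcb and Hars2 encode a mitochondrial peptidase subunit and a mitochondrial tRNA synthetase, Lipa the lysosomal acid lipase and Pgm2 a phosphoglucomutase. No gene of the list was among them. Among the 36 pairs of the other 9 genes, r had a median of 0.33 and was above 0 in 30 (0.31 and 27 without mice 1 and 25), against a median of 0 between these 9 genes and every tested gene outside the list, with the highest for Clec4g and Fcgr2b (0.75), Oit3 and Fcgr2b (0.73), Kdr and Clec4g (0.70) and Kdr and Fcgr2b (0.70). The first fell to 0.42 without the 2 mice farthest in Clec4g, while that of Oit3 and Fcgr2b stayed at 0.76 without the 2 farthest in Oit3.

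Genes with more than 1 probe did not always give the same sign. Stab2 has 5 probes, all well above background in 16 mice. Its 2 probes at the lowest positions, which on this minus-strand gene are nearest the 3′ end (mm9 chr10:86303982-86304041 and chr10:86304198-86304257), differed by -0.13 and -0.16 between OM(HFD) and PBS mice. The 3 probes further upstream differed by 0.02, 0.11 and 0.29. None of the 5 had a p under 0.05. The second probe of Oit3 differed by -0.45 and that of Fcgr2b by -0.30, both in the direction of the first and neither past the threshold. With the mean of its probes, Oit3 was -0.33 and passed the unadjusted threshold, while Fcgr2b was -0.26 and did not. The 2 other probes of Kdr were well above background on 1 and 0 arrays.

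A wider set of 94 endothelial genes, in 6 lists of ligands, co-receptors, transcription factors and markers, was examined beside them. Of these, 88 were tested, since 6 genes, among them Angpt4 and Foxc2, failed the filter on dim probes. The lists overlap, and each gene was counted once. Between OM(HFD) and PBS mice, 4 of 88 were called lower and 0 higher (4.55%, all genes 3.25%), and 60 of 88 had a fold change below 0, with a median of -0.09. With the lean microbiota against PBS, 1 was called lower and 0 higher (1.14%, all genes 3.88%), with a median of -0.02. Between OM(HFD) and LM mice, 2 were called lower and 0 higher (2.27%, all genes 2.67%), with a median of -0.05. No p passed adjustment. Without mice 1 and 25, the calls were 4, 2 and 2 lower and 0, 0 and 2 higher, where 3.14%, 4.73% and 3.67% of all genes were called in either direction. The medians were then -0.05, -0.04 and 0, with 54, 51 and 47 of 88 below 0, where 60, 47 and 61 were below 0 with both mice included, as were 50.7%, 53.1% and 49.0% of all genes.

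Of the 8 ligands tested, Vegfa and Vegfc among them, 0 were called in any comparison, and their medians were 0.04, 0.15 and 0.04 in the order given. Of the 10 co-receptors and partners, 0, 1 and 1 were called lower. Of the 16 transcription factors, 1, 0 and 0 were called, and of the 22 pan-endothelial markers, 2, 1 and 2. Over all genes, 3.25%, 3.88% and 2.67% were called in either direction, and 1.76%, 2.09% and 1.29% were called lower. Of the 26 sinusoidal markers, 1, 0 and 0 were called, with medians of -0.18, -0.13 and -0.03 (-0.13, -0.14 and 0.02 without mice 1 and 25), and of the 11 lymphatic markers 0 in any comparison, with medians of -0.06, 0.06 and -0.07. Without mice 1 and 25, 2, 0 and 0 transcription factors and 1, 0 and 2 pan-endothelial markers were called lower. So were 0, 2 and 0 sinusoidal and 1, 0 and 0 lymphatic markers. Between OM(HFD) and LM mice, 1 transcription factor and 1 sinusoidal marker were then called higher. Of all genes, 3.14%, 4.73% and 3.67% were then called in either direction.

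**Figure D5:**
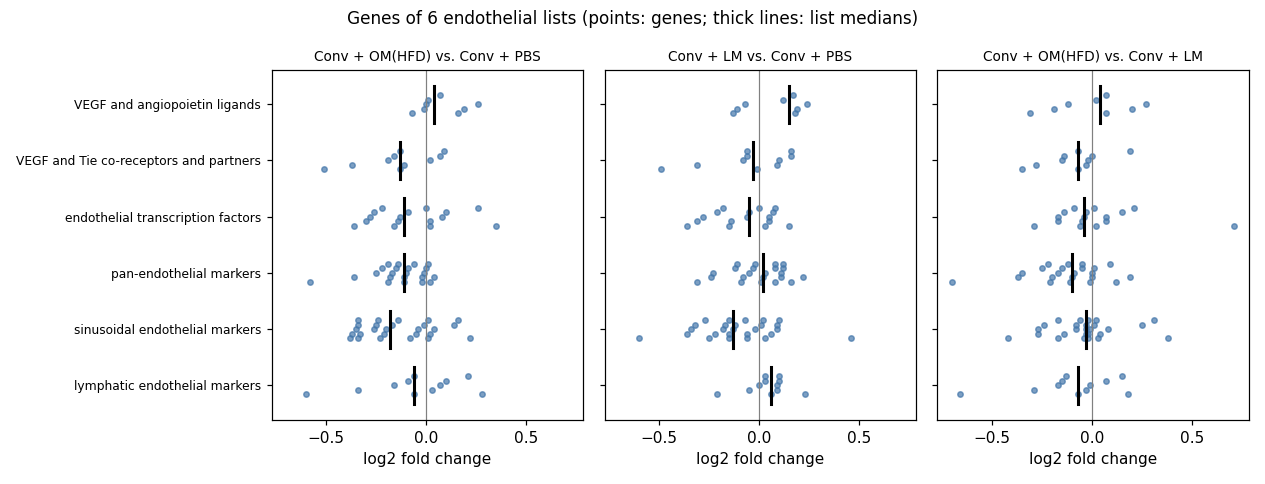
Log2 fold change of each tested gene of 6 endothelial lists (points) with the median of each list (thick line) in the 3 comparisons; genes on 2 lists are drawn in both. The sinusoidal list has medians of -0.18 and -0.13 against Conv + PBS mice and -0.03 between the transfer groups.

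Adgrl4, an adhesion receptor of endothelial cells, was called lower with the HFD-microbiota against both other groups. It was -3.17, -2.30, -2.48, -2.46 and -2.01 in LM mice 13 to 17. It was -3.66, -3.38, -3.05, -3.38 and -2.47 in OM(HFD) mice 25, 26, 28, 29 and 30. PBS mice ran from -3.05 to -2.34, so that 3 HFD-microbiota mice were below all PBS and LM mice and the groups overlapped. The log2 fold change was -0.70 ± 0.23 (SE) against LM mice (limma p = 0.00722, adjusted p = 0.999; exact permutation p = 0.0476) and -0.58 ± 0.22 (SE) against PBS mice (limma p = 0.0168, adjusted p = 1; exact permutation p = 0.0325). The first held in all 16 fits that left out 1 mouse (-0.88 to -0.58) and without mice 1 and 25 (-0.59), and was -0.32 on slide 1 and -1.06 on slide 2. The second was -0.58 on slide 1 and -0.65 on slide 2, and was lost without mouse 25 (-0.47) and without mice 1 and 25 (-0.47).

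Tie1, the partner receptor of Tek, differed by -0.35 ± 0.16 (SE) between OM(HFD) and LM mice (limma p = 0.0456, adjusted p = 0.999; exact permutation p = 0.0714). It was -0.46 on slide 1 and -0.23 on slide 2. This call was lost in 8 of the 16 fits that left out 1 mouse, without mice 2, 3, 14, 16, 17, 25, 28 or 29 (-0.36 to -0.23), and without mice 1 and 25 together (-0.23). Cdh5, the cadherin of endothelial junctions, was called lower with the lean microbiota against PBS, with a log2 fold change of -0.31 ± 0.13 (SE; limma p = 0.0311, adjusted p = 0.998; exact permutation p = 0.0238). PBS mouse 1 had the highest Cdh5, 1.17 against 0.36 to 0.58 in the other PBS mice. The difference was -0.36 on slide 1 and -0.29 on slide 2. The Cdh5 call was lost without that mouse (-0.19), without mice 1 and 25 (-0.19) and without mouse 13, 14 or 17 (-0.27, -0.30 and -0.31).

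Cldn5, a tight junction protein, differed by -0.36 ± 0.14 (SE) between OM(HFD) and PBS mice (limma p = 0.0243, adjusted p = 1; exact permutation p = 0.0584). It was -0.28 on slide 1 and -0.39 on slide 2, and fell short without mouse 1, 25, 28 or 29 (-0.27, -0.32, -0.33 and -0.32) and without mice 1 and 25 together (-0.23). Fli1, the ETS factor named above, differed by -0.36 ± 0.15 (SE) in the same comparison (limma p = 0.0316, adjusted p = 1; exact permutation p = 0.0281), and by -0.45, still past the threshold, without mice 1 and 25. It was -0.29 on slide 1 and -0.47 on slide 2, and fell short without mouse 3, 5, 26 or 28 (-0.34, -0.31, -0.24 and -0.33). Tspan7, a tetraspanin rich in sinusoidal endothelium, differed by -0.24 ± 0.11 (SE; limma p = 0.0463, adjusted p = 1; exact permutation p = 0.0714). It passed in 5 of 16 fits that left out 1 mouse (range of all 16, -0.33 to -0.18) and not without mice 1 and 25 (-0.21), and was -0.48 on slide 1 and 0.06 on slide 2. Erg, the other ETS factor named above, went the other way from Fli1. It was 0.35 higher in OM(HFD) than in PBS mice and 0.71 higher than in LM mice, and was not called in either.

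Markers of other liver cells are given beside these results, and their part in them was not tested. Of 15 Kupffer cell and macrophage markers, 14 were lower in LM than in PBS mice (median -0.38, 0 called), 12 were lower in OM(HFD) than in PBS mice (median -0.10, 1 called higher) and 0 of 15 were lower in OM(HFD) than in LM mice (median 0.30, 0 called). Without mice 1 and 25 the medians were -0.08, -0.01 and 0.13 in the same order, with 12, 8 and 4 of 15 lower. Their summed level was 83.3 to 319 in PBS, 70.3 to 95.4 in LM and 81.7 to 167 in OM(HFD) mice. Of 13 stellate cell and fibroblast markers tested, 3 were called lower in OM(HFD) than in PBS mice (1.76% of all genes) and 2 lower than in LM mice (1.29% of all genes), with medians of -0.03 and -0.13 and summed levels of 153 to 188, 142 to 208 and 125 to 195 in the order PBS, LM and OM(HFD). The 10 hepatocyte markers had medians of 0.06, -0.04 and 0.06, and 0 were called. Of 8 blood cell and platelet markers, 1, 3 and 2 were lower in OM(HFD) vs. PBS, LM vs. PBS and OM(HFD) vs. LM mice, with medians of 0.25, 0.10 and 0.28 and 0 called, and medians of 0.10, 0.22 and 0.06 without mice 1 and 25. Of the 8 bile duct markers, 1 was called lower with the HFD-microbiota against PBS, where 1.76% of all genes were.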

How the data were processed

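Liver RNA of 16 mice was measured on 1-colour Agilent mouse arrays, with mice assigned to groups by their labels. Per the labels and file headers, the authors extracted spot intensity with Agilent Feature Extraction 10.10.1.1 and probe positions are on mm9. The deposited intensity (gProcessedSignal) was background-subtracted within each array. Deposited log2 values of the authors matched quantile-normalized median brightness to within 0.132 and served as an alternative.

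Control and outlier-flagged spots were left out, spots of a probe averaged, log2 taken and each array's 75th percentile subtracted. Probes well above background on 5 or more arrays were kept, 30664 in all, and the probe with the highest mean stood for a gene. The 3 groups were fitted together in limma 3.58.1 (R 4.3.3) with Benjamini-Hochberg adjustment over 20404 genes. Genes were called at the methods' unadjusted p under 0.05, without the fold change limits that the methods also name. Exact permutation tests were two-sided. Plots used matplotlib 3.10.9 and Python 3.11.15. The fit was tested on simulated data. No spot was saturated, and the number of mice limits precision.

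The genes named with their values are the 10 list genes, wider endothelial genes with an unadjusted p under 0.05, Erg, and the 5 genes most correlated with Flt4. Others, such as Alb, Vegfa and Foxc2, are named only as members of their lists. The list and the wider lists were chosen with earlier results of these data known. RefSeq upstream sequence matched 7 of the 10 genes. Alternatives were normexp (offset 50), quantile normalization, the authors' values, filters, slide as a block, 2 groups per fit, array weights, other probes, an unpaired t-test and leaving out mice.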

Additional observations from a re-analysis of the deposited data

How the results depend on the processing

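The count of called genes among the 9 in Conv + OM(HFD) vs. Conv + PBS mice (1) was 2 with normexp correction, quantile normalization, the authors' values, only probes bright on all arrays, slide as a block and the mean of probes, 3 with array weights, 0 without mice 1 and 25 (chosen after the data were seen) and 0 to 4 without single mice. In Conv + LM vs. Conv + PBS mice (0) it was 2 with normexp, the authors' values, 2 groups per fit, an unpaired t-test and without mice 1 and 25, 1 with slide as a block and the mean of probes, and 0 to 2 without single mice. In Conv + OM(HFD) vs. Conv + LM mice (1) it was 0 with normexp and without mice 1 and 25, and 0 to 1 without single mice. Over these settings and a fit with no filter on dim probes, 2.44% to 4.21%, 2.75% to 4.91% and 1.96% to 4.22% of all genes were called in the 3 comparisons. The cause was not tested. The medians of the 9 (-0.21, -0.08 and -0.08 in this order) ran from -0.26 to -0.13, -0.12 to -0.04 and -0.12 to -0.01 without single mice, and were -0.14, -0.04 and -0.02 without mice 1 and 25, and the second was -0.02 with the mean of probes. Among the wider genes, normexp gave 7, 3 and 3 calls of 88 (3.15%, 2.75% and 2.7% of all genes), against 4, 1 and 2.

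Of 750 single-gene values, 46 had the opposite sign and 0 of these had p under 0.05. In Conv + OM(HFD) vs. Conv + PBS mice these were Lyve1 (array weights -0.03, without mice 1 and 25 -0.05, single mice -0.06 to 0.36), Pecam1 (single mice -0.02 to 0.12) and Stab2 (mean of probes 0.02, other probes 0.02, 0.11 and 0.29). In Conv + LM vs. Conv + PBS mice they were Lyve1 (array weights -0.03, without mice 1 and 25 -0.03, single mice -0.11 to 0.52), Pecam1 (array weights -0.01, single mice -0.15 to 0.17), Stab1 (single mice -0.05 to 0.02) and Stab2 (mean of probes 0.08, other probes 0.07, 0.20 and 0.26). In Conv + OM(HFD) vs. Conv + LM mice they were Pecam1 (quantile -0.04, slide -0.03, single mice -0.12 to 0.19), Lyve1 (array weights 0.00, single mice -0.36 to 0.28), Stab2 (authors' values 0.05, another probe 0.03), Fcgr2b (mean of probes 0.00, another probe -0.05, single mice -0.06 to 0.16), Clec4g (without mice 1 and 25 0.05, single mice -0.24 to 0.05) and Oit3 (single mice -0.21 to 0.02). No paired analysis was possible because no mouse number occurs in more than 1 group.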
